A study of Mus musculus with 18 samples.

Results

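The comparison described here is that of hydrogen peroxide (H2O2) with vehicle in cultured neural stem cells (NSCs) at the largest RNA input of the series, 1 ng. It holds 6 of the 18 libraries, chosen by the headers of the 1 ng tables, with 3 columns headed vehicle and 3 headed H2O2. The cells came from the dentate gyrus of adult C57Bl6J mice aged 6 to 9 weeks and were kept at passage 6 to 15 in medium with epidermal growth factor and basic fibroblast growth factor at 20 ng/ml each. H2O2 was given at 500 µM for 24 h, and controls had the vehicle alone, which the labels give as water and the study's methods as phosphate-buffered saline. RNA was taken from about 30000 cells of each culture. Both groups hold the same 3 cultures, which the headers call F5, F8 and M9. The methods describe 2 lines, grown from pooled male and pooled female mice, so that the 3 replicates do not come from 3 separate animals and at least 2 share a line.

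Adult NSCs of the dentate gyrus divide in medium with growth factors and can leave the cycle for a reversible resting state called quiescence. H2O2 is a diffusible oxidant that damages DNA, lipids and proteins and that cells remove with catalase, glutathione peroxidases and peroxiredoxins. Dividing cells make large amounts of the proteins that copy and separate chromosomes and of the machinery for RNA and protein synthesis. Resting and stressed cells are known to rely more on lysosomes, autophagy and fat oxidation. Because each library is bulk RNA, fewer cells in a state and less RNA per cell cannot be told apart here. Genes were therefore gathered into 97 lists by complex, pathway or family, and each list is given by how many members passed the test in each direction and by the median of its members.

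Each library held between 10032628 and 11946931 reads in genes, and the table that the authors filtered with CLEAR, a method that drops thinly covered transcripts, kept 95.0% to 95.5% of them. The H2O2 library of F5 stood apart. On the first principal component, which carried 52.9% of the variance, it lay at 69.6, against 21.7 and 8.82 for the H2O2 libraries of F8 and M9 and -46.8 to -25.5 for the vehicle libraries. The stem and progenitor markers were all present (10 of 10), with summed normalized counts of 74640 to 79878 in vehicle and 74412 to 96041 with H2O2, and Vim was the single member called. Most of that sum came from Slc1a3, Nes, Fabp7 and Vim, while Sox2, Hopx and Msi1 had vehicle means of 82.6, 81.4 and 18.6. No marker of another cell type in the CLEAR table was called. In the table without that filter a single one was, the ependymal marker gene Ccdc153, at 0, 1.90 and 0 in vehicle and 12.97, 14.3 and 17.9 with H2O2 (3.48 ± 0.72, adjusted p = 0.0172). Oligodendrocyte lineage markers summed to 29111 to 30985 in vehicle and 25320 to 28950 with H2O2, most of it Olig1 (vehicle mean 28231). Neuron markers summed to 7113 to 8802 and 6741 to 9742, most of it Map2 (vehicle mean 7658). Astrocyte markers summed to 5311 to 6628 and 5600 to 7037. Ependymal and choroid plexus markers summed to 217 to 239 in vehicle and 227 to 293 with H2O2, with 7 of the 10 below 10, Ttr and Folr1 included. Microglial markers summed to 341 to 416 in vehicle and 419 to 427 with H2O2, with no overlap, but 7 of the 10, among them Cx3cr1, Tmem119 and C1qa, stayed below 10 in every library. Fibroblast markers summed to 365 to 499 and 493 to 738, with 6 of the 10 below 10, Dcn and Lum included. The part of these sums in the results was not tested.

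Values are the authors' normalized counts, and differences are H2O2 minus vehicle on log2(value + 1) with their standard error (SE), tested with limma and adjusted by Benjamini-Hochberg over 13692 genes at a threshold of 0.05. A gene is called when it passes. In all, 762 genes (5.57%) were higher and 973 (7.11%) lower with H2O2, and the median difference over all genes was 0.02. With the culture as a replicate block, which compares each H2O2 library with the vehicle library of its own culture, 1155 (8.44%) were higher and 1351 (9.87%) lower. Without the H2O2 library of F5 the counts were 578 (4.23%) and 986 (7.22%), and without that of F8 they were 246 and 392. DESeq2 on the recovered reads called 1324 (10.7%) higher and 1463 (11.8%) lower. Groups that did not overlap were found for 2485 genes (18.1%) upward and 2693 (19.7%) downward, and for each of the 166 called genes of the CLEAR table named below. When the vehicle library of any culture (F5, F8 or M9 in turn) was left out, limma called 0 genes in either direction, with smallest adjusted p of 0.0501, 0.0624 and 0.0552, and this held for every list below. In those fits 1556 to 1743 genes were higher and 1704 to 1831 lower at an unadjusted p under 0.05, and DESeq2 on the same libraries called 630 to 847 higher and 776 to 936 lower. All 166 named genes kept their direction in these 3 fits, which was fixed in advance because their groups do not overlap. They were picked by p in these same data, and DESeq2 on the same libraries called 151 to 158 of them. Of the 166, 164 were called with the block, the exceptions being Ddit4 and Slc7a8. When 1 H2O2 library was left out 152 (F5), 107 (F8) and 152 (M9) of them were called. Below, "without H2O2-F8" stands for the fit that leaves out the H2O2 library of F8, and likewise for F5 and M9. Counts fell by more than 1.5 times in at least 1 direction in 80 of the 97 lists without H2O2-F8, in 26 without H2O2-F5 and in 23 without H2O2-M9. Without H2O2-F8 the counts over all genes also fell, from 762 and 973 to 246 and 392, so such a fall is not in itself particular to a list.

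The lists fell into 9 classes with unlike balances of calls. Lower calls made up 37.3% of the tested members of the chromosome cycle class and 25.1% of those of RNA and protein production, against 7.11% of all genes. Higher calls made up 20.2% of the fate and stress class and 18.2% of vesicles and organelles, against 5.57% of all genes. Redox and metal genes, the class nearest to the chemistry of H2O2, had 7.08% higher and 2.65% lower. With the block 18 of its 113 members were higher and 5 lower, against 8.44% and 9.87% of all genes. DESeq2 called 16 and 4, against 10.7% and 11.8% of all genes. Across the 97 lists, 35 had calls upward alone, 32 downward alone, 26 in both directions and 4 had none.

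**Figure D1:**
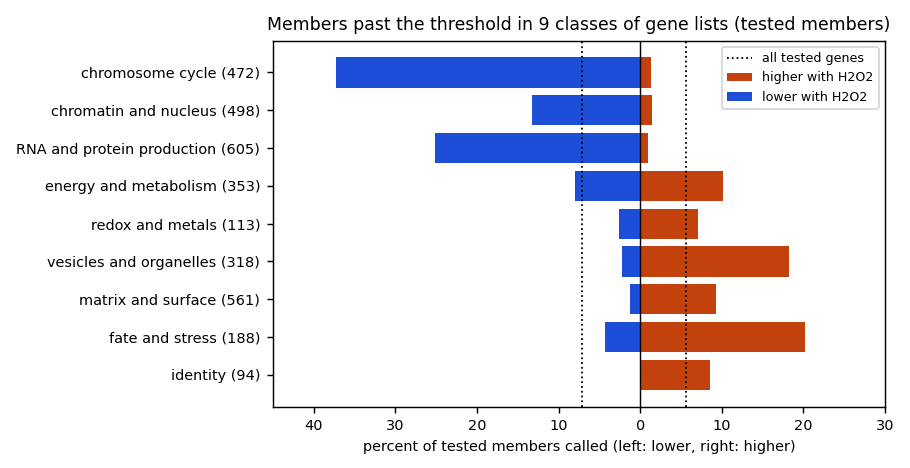
Percent of the tested members of 9 classes of gene lists that were called lower (left, blue) or higher (right, orange) with H2O2 at 1 ng, by limma over 3 against 3 libraries, with the number of tested members in brackets. Dotted lines mark all tested genes, at 7.11% lower and 5.57% higher, and the chromosome cycle reached 37.3% lower.

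Chromosome cycle genes were lower as a class. Of 472 tested members 176 were called lower and 6 higher, with a median of -0.76 that was -0.60 without the H2O2 library of F5. Without the H2O2 library of F8 80 were lower, and with the block 265. The lowest list medians were those of the kinetochore and centromere (21 of 38 lower, median -1.79), the MCM helicase and origin proteins (17 of 30, -1.68) and the replicative polymerases with their clamp (20 of 28, -1.47), and no member of these lists was called higher. These lists had 5, 11 and 15 lower calls when the H2O2 library of F8 was left out and 31, 26 and 26 when that of F5 was. With the block the kinetochore list had 32.

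Kinetochores tie chromosomes to spindle microtubules. Cenpl, a subunit of the inner kinetochore, stood at 247, 273 and 318 in the vehicle libraries of F5, F8 and M9 and at 66.4, 114 and 89.6 in the H2O2 libraries. The groups did not overlap, and the difference was -1.65 ± 0.23 (adjusted p = 0.0192). Ska2, of the complex that tracks microtubule ends, and Mis12, a platform of the outer kinetochore, were lower by values of -1.07 ± 0.16 and -0.78 ± 0.14. In the spindle checkpoint and anaphase-promoting complex 11 of 31 members were lower, led by Ube2s, the enzyme that extends ubiquitin chains for that complex, at 1609, 1562 and 1633 in vehicle and 604, 939.7 and 899.8 with H2O2 (adjusted p = 0.022). With the block 21 of the list were lower, without H2O2-F8 4, and 20 and 19 without H2O2-F5 and H2O2-M9. The core subunits Anapc5 and Anapc1 moved less (-0.51 ± 0.09 and -0.42 ± 0.09). Kinesins, the motors of microtubules, were divided, with 6 of 34 lower and a median of -0.15, 0 lower without H2O2-F8, 12 without H2O2-F5 or H2O2-M9, and 13 lower and 1 higher with the block. Neither Kif22 and Kif18a nor Kif21b, described next, passed without H2O2-F8. The mitotic kinesins Kif22 and Kif18a fell (-2.23 ± 0.51 and -1.63 ± 0.37), as did the neuronal motor gene Kif21b by a smaller step (-0.59 ± 0.14).

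Promoter sequences of 3 of these genes are shown because they were lower with H2O2 and carry letters known from cell cycle promoters. The kinesin list, which holds Kif22 and Kif18a, did not move together, with 16 of 34 members above 0 and 18 below. RefSeq promoters (GRCm38.p6, 250 bases before to 50 after the start) were found for 10190 of the tested genes, in all 13074 promoters. The CCAAT box, bound by NF-Y, is searched as CCAAT, the cell cycle homology region as TTTGAA or TTCGAA, and the E2F site as TTTGGCGC, TTTCCCGC, TTTGGCGG or TTTCGCGC, on both strands, and no set contains the letters of another. Each line gives the 140 bases before the start with the matches in capitals, for Cenpl (chr1:161070627-161070766, plus strand), Kif22 (chr7:127042421-127042560, minus strand) and Kif18a (chr2:109280598-109280737, plus strand), all 3 lower with H2O2.
Cenpl: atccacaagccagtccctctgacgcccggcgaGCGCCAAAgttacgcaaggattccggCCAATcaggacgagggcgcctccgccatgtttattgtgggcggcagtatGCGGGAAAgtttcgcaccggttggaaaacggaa
Kif22: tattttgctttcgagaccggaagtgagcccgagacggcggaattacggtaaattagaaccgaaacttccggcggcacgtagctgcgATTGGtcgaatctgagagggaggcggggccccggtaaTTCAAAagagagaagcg
Kif18a: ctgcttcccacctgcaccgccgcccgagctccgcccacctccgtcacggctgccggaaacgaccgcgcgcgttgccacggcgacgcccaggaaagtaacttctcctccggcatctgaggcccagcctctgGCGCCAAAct
Cenpl holds a CCAAT box between 2 E2F letter runs in reverse, Kif22 an inverted CCAAT box ahead of an inverted cell cycle homology region, and Kif18a an inverted E2F run next to the start.

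A CCAAT box and a cell cycle homology region stood together in 34.3% of the 35 kinetochore promoters, 33.3% of the 33 spindle checkpoint promoters and 27.6% of the 29 kinesin promoters, against 5.8% of all promoters of tested genes. E2F letters were in 42.9% of the 28 MCM and origin promoters and 37.9% of the 29 polymerase promoters, against 4.03% of all. Both counts are descriptions of letters, not of binding.

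Replication genes spanned licensing, firing and synthesis. Orc6, of the complex that marks origins, read 579, 539 and 591 in vehicle and 228, 341 and 315 with H2O2 (-0.97 ± 0.17, adjusted p = 0.0225). Every H2O2 library lay below every vehicle library, with F5 lowest. Gins4, of the helicase that opens the fork, and Cdc7, the kinase that fires origins, were lower as well (-0.71 ± 0.14 and -1.63 ± 0.32). Pold3, an accessory subunit of DNA polymerase delta, gave 578, 601 and 619 and 189, 284 and 256 (-1.32 ± 0.17, adjusted p = 0.0182). Pold2, of the same enzyme, and Pole4, of polymerase epsilon, fell by different amounts (-1.18 ± 0.19 and -0.55 ± 0.09). Nucleotide synthesis followed with 15 of 32 lower, 8 without H2O2-F8, and a median of -0.82, and the purine enzyme Paics read 2568, 2618 and 2778 and 1190.1, 1578 and 1647 (-0.86 ± 0.13).

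Chromosome structure and centrosome genes were lower too. Condensin and cohesin had 17 of 25 lower (median -1.09), and 5 without H2O2-F8. Smc4, a condensin core, read 719, 955 and 917 in vehicle and 252, 362 and 394 with H2O2 (-1.38 ± 0.19, adjusted p = 0.0192), with no overlap. Ncapd3 of condensin II and Smc1a of cohesin fell by 1.09 and 0.61 on the log2 scale. Of 61 centriole and centrosome genes 17 were lower and 1 higher, 29 lower with the block, and 8 lower and 0 higher without H2O2-F8. Sass6, the scaffold of a new centriole, went from 213, 208 and 174 to 53.3, 64.1 and 82.2 (-1.58 ± 0.22, adjusted p = 0.0192). Cep170b, a microtubule-associated relative of Cep170, was the member called higher (1.55 ± 0.34).

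DNA repair pathways did not move alike. Homologous recombination and Fanconi anaemia genes, which repair breaks from a sister copy, had 14 of 33 lower and a median of -1.11, with 4 lower without the H2O2 library of F8 and 22 with the block. Brca1, which directs breaks to this repair, read 622, 701 and 549 in vehicle and 59.4, 228 and 169 with H2O2 (-2.23 ± 0.44, adjusted p = 0.0279), with F5 the lowest. Non-homologous end joining, which joins ends without a copy, had 1 of 11 lower (median -0.24), the end-binding Xrcc6 (-0.72 ± 0.14). Base excision repair, the main route for oxidized bases, had 4 of 21 lower and 0 higher in the unblocked fit, among them the nick sensor Parp1 (-0.97 ± 0.15) and the endonuclease Apex1 (-0.83 ± 0.17), and 9 lower and 1 higher with the block. In nucleotide excision repair Ercc5, the 3' nuclease, was the single call of 24 and was higher (0.64 ± 0.13), though not without H2O2-F8. No mismatch repair gene of 7 passed by limma without the block, but 4 were lower with it and 4 by DESeq2. Pms2 had the smallest p of them without the block (-0.73 ± 0.20, adjusted p = 0.0529, and 0.0388 with the block). The difference between repair pathways itself was not tested.

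Cyclins and their kinases had 7 of 19 lower and 0 higher (median -1.19), with 2 lower without the H2O2 library of F8, 13 and 11 without H2O2-F5 and H2O2-M9 and, with the block, 13 lower and 2 higher. Ccne2, which drives entry into S phase, read 542, 584 and 549 in vehicle and 59.4, 206 and 177 with H2O2 (-2.10 ± 0.42, adjusted p = 0.0284), with F5 the lowest. Of the E2F and pocket protein list 10 of 20 were lower, 4 without H2O2-F8, among them Tfdp1, the partner of E2F (-0.97 ± 0.17), and Rbl1, the pocket protein p107 (-1.62 ± 0.28). The inhibitors of cyclin-dependent kinases split. Cdkn2b, which encodes p15, rose from 374, 289 and 271 to 1018, 653 and 634 (1.28 ± 0.21, adjusted p = 0.022), and Cdkn1a, which encodes p21, by 0.86 ± 0.17. Cdkn2c, which encodes p18, fell from 753, 983 and 1021 to 309, 447 and 417 (-1.24 ± 0.18, adjusted p = 0.0201), and Cdkn2d, which encodes p19 of the same family, by a smaller step (-0.55 ± 0.13). Cdkn1a and Cdkn2d did not pass without H2O2-F8. For each of these 4 genes the 3 H2O2 libraries lay on the same side of all vehicle libraries.

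**Figure D2:**
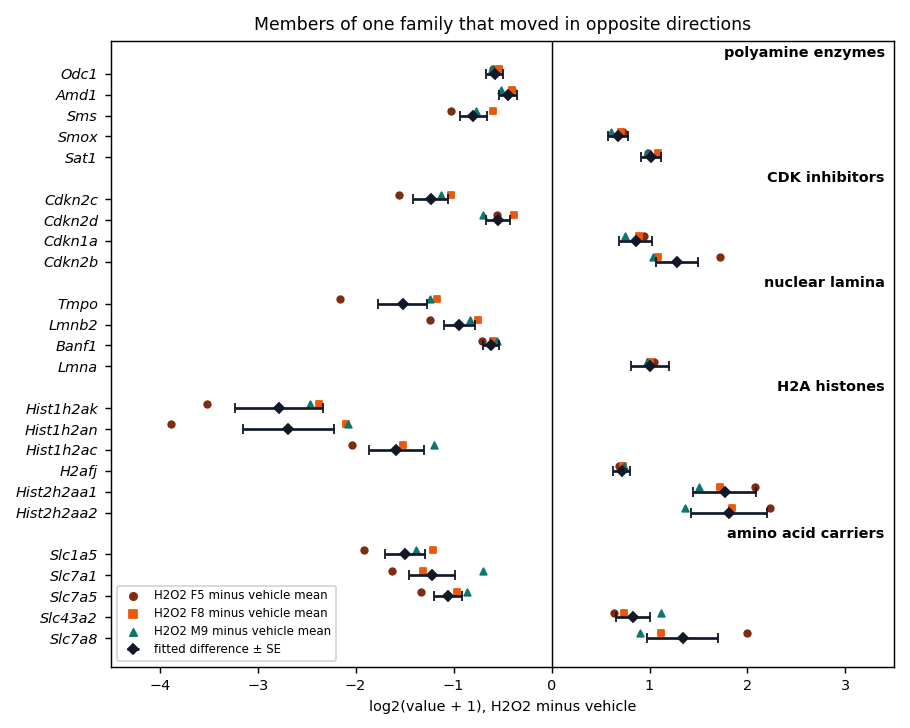
Differences of H2O2 from vehicle on log2(value + 1) for members of 5 families that were called in opposite directions, with the fitted difference and SE (diamonds, 3 against 3 libraries) and each H2O2 library minus the vehicle mean (small symbols by culture). Sat1 lies at 1.02 against -0.58 for Odc1, Lmna at 1.01 against -1.52 for Tmpo and Cdkn2b at 1.28 against -1.24 for Cdkn2c.

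Histone genes were called mostly lower. Replication-dependent histones are made in S phase and mostly lack a poly(A) tail, so a poly(A)-primed library sees them in part. Of 50 tested 14 were lower and 2 higher (median -0.32), 8 and 0 without H2O2-F8, and the library medians were -0.06, -0.48 and -0.68 for F5, F8 and M9, here with F5 nearest to 0. Hist1h2an went from 248, 251 and 258 to 16.1, 58.0 and 59.0 (-2.69 ± 0.46, adjusted p = 0.0226), and Hist1h2ak and Hist1h2ac fell too (-2.78 ± 0.45 and -1.58 ± 0.28). Hist2h2aa1 and Hist2h2aa2, near-identical H2A copies whose reads may be shared, were the 2 higher (1.77 ± 0.32 and 1.81 ± 0.39). Among variants and chaperones 14 of 26 were lower (8 without H2O2-F8) and 1 higher, H2afj, an H2A variant that gathers in senescent human fibroblasts. H2afj read 736, 735 and 685 in vehicle and 1157, 1189.9 and 1197 with H2O2 (0.72 ± 0.09, adjusted p = 0.0167), with 3 close values in each group. The chaperones Anp32b, Set and Nap1l1 were lower (-1.04 ± 0.15, -0.87 ± 0.12 and -0.71 ± 0.11).

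Calls among chromatin writers and architecture proteins were nearly all lower. Polycomb had 3 of 26 lower and 0 higher (median -0.09), against 7.11% lower and 5.57% higher of all genes. Its methyltransferase gene Ezh2 read 1031, 1071 and 1042 in vehicle and 267, 471 and 538 with H2O2 (-1.36 ± 0.24). Cbx2, a reader of the mark, was at -1.63 ± 0.26. In DNA methylation 3 of 14 were lower, the maintenance pair Dnmt1 and Uhrf1 (-1.47 ± 0.31 and -2.05 ± 0.48) and the low-level Dnmt3b (-1.25 ± 0.33), with 6 lower with the block. Uhrf1 read 2679.8, 2768 and 2702 and 264, 1081 and 986, so that the H2O2 library of F5 was far below the other 2. High mobility group genes had 5 of 11 lower, led by Hmgn1 (-0.62 ± 0.10), and 1 without H2O2-F8. The 333 tested Zfp genes of the zinc finger kind, the largest family of the list set, had 5 higher and 2 lower and a median of -0.08, below the background in both directions, though 14 were lower by DESeq2.

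The nuclear envelope moved with the chromosome lists. Of 30 nuclear pore genes 15 were lower and 0 higher (median -0.74), and of 29 transport receptors 15 (median -0.46). Leaving out the H2O2 library of F8 left 7 and 8 lower. Ipo5, an importin for ribosomal proteins, read 3481, 3737 and 3657 in vehicle and 1985, 2101 and 2119 with H2O2, with the 3 H2O2 values close together (-0.81 ± 0.08, adjusted p = 0.0127). Nup155, a scaffold nucleoporin, went from 677, 632 and 598 to 244, 347 and 367 (-1.01 ± 0.17, adjusted p = 0.022). The lamina list had 6 of 14 lower and 1 higher, 4 and 0 without H2O2-F8. Lmna, the gene of A-type lamins, rose from 1449.6, 1603 and 922 to 2659.8, 2583 and 2526 (1.01 ± 0.19, adjusted p = 0.0265). The B-type lamin gene Lmnb2 fell from 671, 616 and 762 to 288, 403 and 381 (-0.94 ± 0.16, adjusted p = 0.022). Tmpo, a lamin-binding protein, and Banf1, which bridges DNA to the envelope, fell by 1.52 and 0.62 on the log2 scale. Tubulins had 3 of 15 lower, Tuba1b (-0.62 ± 0.08), Tubb5 (-0.82 ± 0.11) and Tubg1 (-0.57 ± 0.08).

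**Figure D3:**
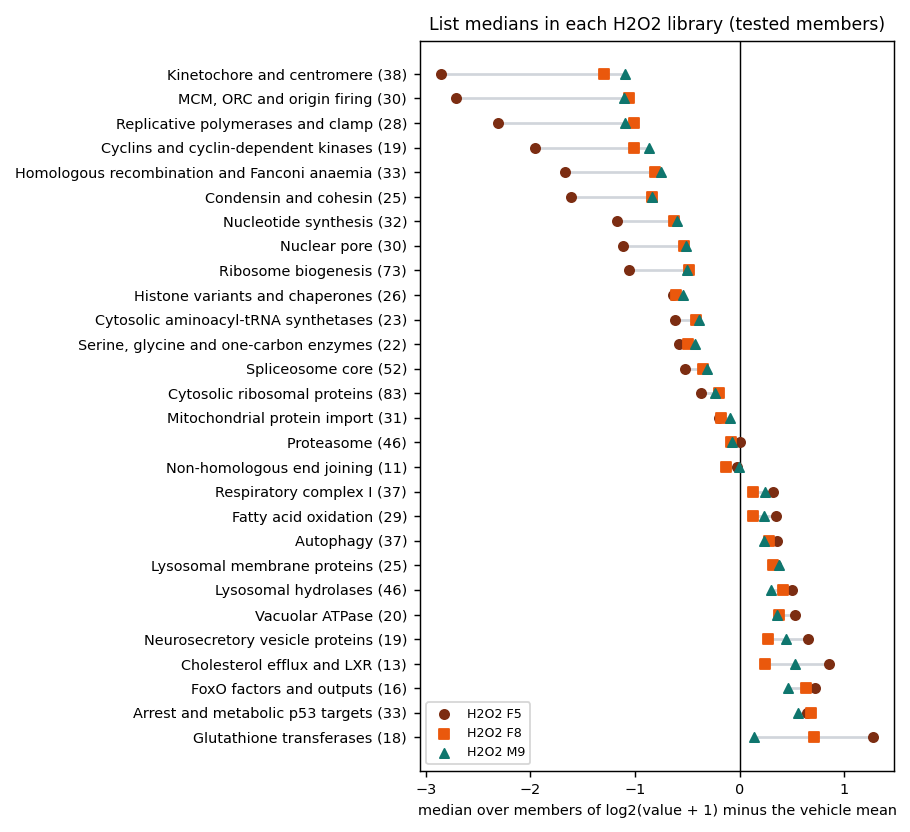
Median over the tested members (number in brackets) of 28 gene lists of log2(value + 1) in each H2O2 library minus the mean of the 3 vehicle libraries. The kinetochore list lies at -2.85, -1.30 and -1.09 for F5, F8 and M9, and the arrest and metabolic p53 targets at 0.64, 0.69 and 0.56.

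RNA and protein production was called mostly lower. Of 605 tested members 152 were called lower and 6 higher (median -0.28, -0.23 without the H2O2 library of F5), and 55 were lower without the H2O2 library of F8. Ribosome biogenesis held the most, with 37 of 73 lower, 0 higher and a median of -0.69, 22 lower without H2O2-F8 and 56 by DESeq2. Its library medians were -1.06, -0.49 and -0.50 for F5, F8 and M9, with F5 farthest from 0. Dkc1, the pseudouridine synthase that is also part of telomerase, read 1597, 1402 and 1271 in vehicle and 484, 783 and 676 with H2O2 (-1.16 ± 0.18, adjusted p = 0.0208), and its partner Nop10 and the nucleolar stem cell protein gene Gnl3 fell by 0.69 and 1.06 on the log2 scale. The enzymes that transcribe ribosomal and transfer RNA, RNA polymerases I and III, had 10 of 34 lower and 1 higher, 3 and 5 lower without H2O2-F8 and H2O2-M9, while RNA polymerase II with Mediator had 1 of 43 lower and 1 higher. Cytosolic ribosomal proteins, the list with the smallest spread over the vehicle libraries, had 19 of 83 lower at a median of -0.27, within-group SD medians being 0.05 in vehicle and 0.10 with H2O2. Of the 83, 5 were lower when the H2O2 library of F8 was left out, 7 when that of M9 was, and 32 by DESeq2. Rps27a, which makes a fusion of ubiquitin and a ribosomal protein, went from 2345, 2656 and 2657 to 1692, 1945 and 1764 (-0.50 ± 0.09, adjusted p = 0.0258).

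Translation and RNA handling followed the same direction. Cytosolic aminoacyl-tRNA synthetases, which charge tRNAs with amino acids, had 13 of 23 lower (median -0.52), and their mitochondrial counterparts 3 of 17 (-0.25), with 6 and 0 without H2O2-F8. Farsb, of the phenylalanine enzyme, read 1260.0, 1308 and 1408 in vehicle and 799.8, 913 and 857 with H2O2 (-0.63 ± 0.09, adjusted p = 0.0201), and Vars, the valine enzyme, fell further (-1.29 ± 0.21). Eif4g3, a scaffold of cap-dependent initiation, was the 1 initiation factor called higher (0.43 ± 0.08), against 10 of 44 lower. Without H2O2-F8 the list had 2 lower and 0 higher, and without H2O2-M9 6 lower and 1 higher. The spliceosome core had 19 of 52 lower and the SR and hnRNP regulators 14 of 33, with Snrpg at -0.88 ± 0.15 and Srsf3 at -0.78 ± 0.15. When the H2O2 library of F8 was left out 9 and 0 of them passed. Exosc8, of the RNA exosome that degrades RNA from the 3' end, went from 732, 808 and 836 to 275, 314 and 377 (-1.31 ± 0.14, adjusted p = 0.0138), and Exosc6 and Exosc2 of the same complex fell by 1.13 and 1.16 on the log2 scale. Protein breakdown by the proteasome did not follow, with 2 of 46 higher, 3 lower and a median of -0.04, and none passed without H2O2-F8. The 2 higher were the activator gene Psme1 (0.66 ± 0.15) and the immunoproteasome gene Psmb8 (1.11 ± 0.29), which interferons are known to induce.

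Genes of amino acid supply were called mostly lower. ATF4 is the factor that turns on amino acid synthesis and transport when amino acids run short. Of 25 ATF4 targets 7 were lower and 2 higher (median -0.69), and of 22 serine, glycine and one-carbon enzymes, a list that shares members, 9 were lower and 1 higher (median -0.53). Without H2O2-F8 6 and 5 were lower and 0 higher in both. Asns, asparagine synthetase, read 2619, 4105 and 3629.5 in vehicle and 1364, 1366 and 1462 with H2O2 (-1.28 ± 0.16, adjusted p = 0.017), and here the H2O2 libraries were closer together than the vehicle libraries. Shmt2 and Mthfd2, the mitochondrial folate enzymes, and Phgdh, the entry to serine synthesis, fell by 1.44, 1.21 and 0.74 on the log2 scale. The members called higher were Sesn2, a sestrin that restrains mTORC1 (0.56 ± 0.10), Ddit4, another inhibitor of mTORC1 (0.75 ± 0.20), and Cbs, the first enzyme from homocysteine to cysteine (0.94 ± 0.24). Sesn2 and Ddit4 are also known to be induced through other factors.

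The Asns promoter is shown because Asns leads the list and holds the ATF4 letters TGATGAAA, given in capitals in the 140 bases before the start (chr6:7693210-7693349, minus strand, RefSeq, GRCm38.p6).
Asns: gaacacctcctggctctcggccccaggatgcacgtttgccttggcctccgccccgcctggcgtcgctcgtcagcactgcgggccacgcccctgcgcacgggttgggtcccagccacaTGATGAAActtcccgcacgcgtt
The ATF4 letters TGATGCAA or TGATGAAA, on both strands, were in 24.1% of the 29 promoters (24 genes) of the list, against 1.1% of all promoters of tested genes. The list was put together from known ATF4 targets, so this share describes the list and not the response to H2O2.

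Amino acid carriers were split. Slc7a5, the large neutral amino acid carrier, went from 4924, 6138 and 5494 to 2178, 2806 and 3030.2 (-1.05 ± 0.14, adjusted p = 0.0186). Slc1a5, which takes up glutamine, and Slc7a1, which takes up arginine and lysine, were lower as well (-1.50 ± 0.21 and -1.22 ± 0.23). Slc43a2 and the low-level Slc7a8, both carriers of neutral amino acids, were higher (0.83 ± 0.18 and 1.34 ± 0.36). Of 24 carriers tested 3 were lower and 2 higher, 2 and 0 without H2O2-F8 and 7 and 1 with the block.

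Polyamine enzymes were called by the direction of their reaction. Sat1, which acetylates polyamines for breakdown and export, rose from 729.6, 687 and 621 in vehicle to 1343, 1440.1 and 1333 with H2O2 (1.02 ± 0.10, adjusted p = 0.0127), and the 6 values fell into 2 tight sets. Smox, which oxidizes spermine and gives off H2O2, was higher too (0.68 ± 0.10, adjusted p = 0.0201). Odc1, the first enzyme of synthesis, went from 3281, 3653 and 3835 to 2373, 2472 and 2353 (-0.58 ± 0.09, adjusted p = 0.0201), and Sms and Amd1, later in synthesis, fell by 0.80 and 0.45 on the log2 scale. In all 3 of 18 arginine and polyamine enzymes were higher and 4 lower, 2 and 3 without H2O2-F8, and the third of the higher was the low-level Ass1 (29.8, 12.5 and 4.38 and 93.6, 117 and 44.3).

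Energy genes had calls in small numbers. Of the nuclear genes of respiratory complex I, 7 of 37 were higher and 0 lower (median 0.23), and 2 and 4 were higher without H2O2-F8 and H2O2-M9. Complexes II to IV, ATP synthase and the citrate cycle with pyruvate dehydrogenase had 2 of 29, 1 of 19 and 2 of 27 higher, near the 5.57% of all genes. Ndufs4, an accessory subunit of complex I, read 1113, 1101 and 1081 in vehicle and 1617, 1444 and 1434 with H2O2 (0.45 ± 0.09, adjusted p = 0.0277). Cox6b2, an isoform of cytochrome oxidase usually found in testis, rose from a low level, 54.3, 62.5 and 36.8, to 193, 156 and 149 (1.70 ± 0.26). Mitochondrial protein import went the other way, with 7 of 31 lower, 2 without H2O2-F8, and 0 higher, Timm50 of the inner membrane gate at -0.74 ± 0.12. Pdk2, the kinase that shuts pyruvate dehydrogenase, was higher (1.13 ± 0.23), and so were 3 of 22 glycolysis genes, Ldhb (0.74 ± 0.11), Eno2 and Pfkm, with 1 higher without H2O2-F5 and 5 higher without H2O2-F8. Reads of the mitochondrial genome were removed before alignment, so that its genes were not analysed here.

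Calls among fat metabolism genes differed in direction between pathways, and flux was not measured. Fatty acid oxidation had 6 of 29 higher and 0 lower and peroxisomes 5 of 29 higher and 0 lower, while fatty acid synthesis had 3 of 16 lower and 0 higher. Without H2O2-F8 oxidation had 4 and peroxisomes 3 higher. Acadvl, which starts the oxidation of long chains, read 1484, 1583 and 1399.6 in vehicle and 2975, 2545 and 2560.3 with H2O2 (0.85 ± 0.10, adjusted p = 0.0153). Acad11 and Cpt1c, the brain member of the carnitine transferase family, were higher (1.14 ± 0.18 and 0.87 ± 0.14), as was the peroxisomal Hacl1 (1.13 ± 0.19). Acaca, Elovl6 and Fasn, enzymes that build and lengthen fatty acids, were lower by 0.38, 0.40 and 0.36 on the log2 scale, and with the H2O2 library of F8 left out none of the 3 passed, nor without H2O2-M9. Of 13 cholesterol efflux and LXR genes 4 were higher, 2 without H2O2-F8, among them Abca1, the cholesterol exporter (456, 628 and 231 and 1777, 1268 and 1166, 1.77 ± 0.34), Pltp (1.65 ± 0.21) and Lpcat3 (0.66 ± 0.10).

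Antioxidant lists had few calls at 24 h by limma without the block. None of 19 genes of glutathione synthesis and its peroxidases passed by limma, against 3 higher by DESeq2 and 2 higher and 1 lower with the block. Gpx8 had the smallest p of them, at 603, 646 and 529.9 in vehicle and 1245, 792 and 791 with H2O2 (0.64 ± 0.19, adjusted p = 0.0607). The 18 glutathione transferases had the highest list median of all 97, 0.76, but 1 call, Gstm7 (0.84 ± 0.22, adjusted p = 0.0476), which did not pass without H2O2-F5 or H2O2-F8. Their library medians were 1.28, 0.71 and 0.14 for F5, F8 and M9, and the SD medians of 0.43 in vehicle and 0.56 with H2O2 were wide. With the block 6 of the 18 were higher. The antioxidant response letters TGACNNNGC, on both strands, were in 16% of the 25 transferase promoters and 8.7% of the 23 promoters of the first list, against 14.1% of all. In the peroxiredoxin, thioredoxin, superoxide and catalase list, 3 of 27 were higher and 1 lower (5 higher with the block or without H2O2-M9, 1 without H2O2-F8), and the 3 higher were the sestrins Sesn1, Sesn2 and Sesn3, stress proteins that aid peroxiredoxins. Sesn3 read 519, 458 and 441 and 700.2, 780.0 and 744 (0.65 ± 0.11, adjusted p = 0.022). Prdx4, the peroxiredoxin of the endoplasmic reticulum, went from 950.1, 1055 and 1057 to 624, 680.4 and 652 (-0.64 ± 0.10, adjusted p = 0.0201). Iron genes had 2 of 28 higher and 2 lower, near the 5.57% and 7.11% of all genes. The higher were the heme enzymes Ppox (0.48 ± 0.10) and Alas1 (0.64 ± 0.16), and the lower included the transferrin receptor gene Tfrc (-0.53 ± 0.11). None of the 28 passed without H2O2-F8. Slc39a13, a zinc carrier of the Golgi and vesicles, was higher (311, 342 and 279 and 882, 629 and 622, 1.18 ± 0.17).

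**Figure D4:**
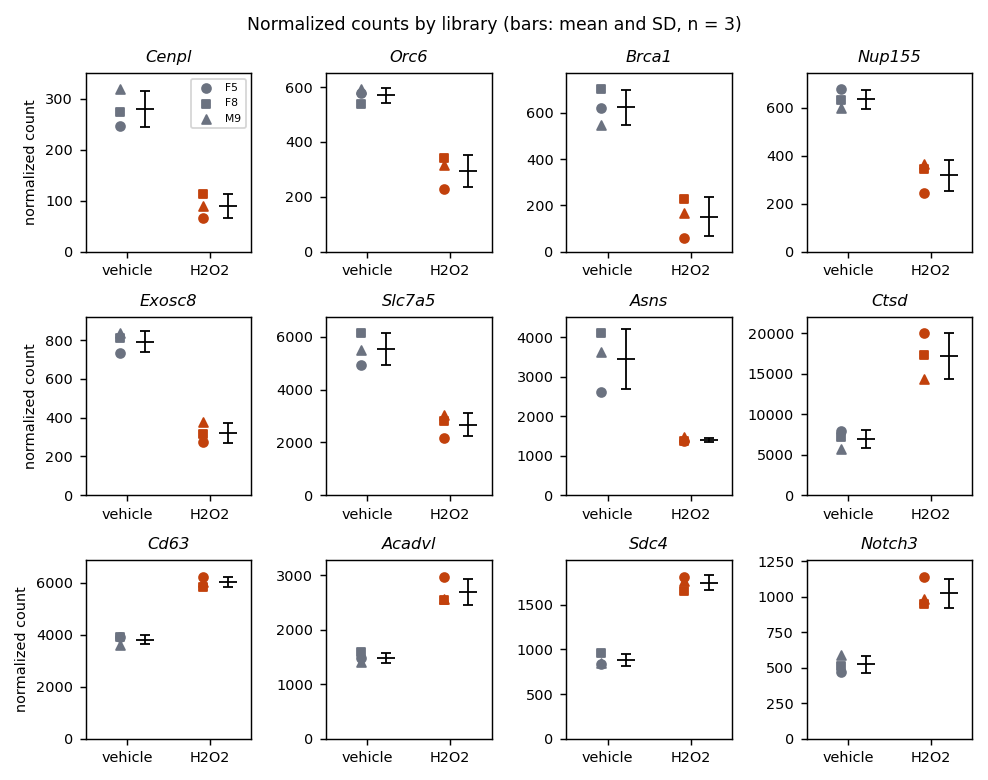
Normalized counts of 12 leading genes in each of the 3 vehicle (grey) and 3 H2O2 (orange) libraries, with symbols by culture and the mean and SD beside them. In each panel the groups do not overlap, and Cd63 reads 3930.2, 3897 and 3615 in vehicle and 6240.1, 5842 and 6024 with H2O2.

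Vesicle and organelle genes were called mostly higher. Of 318 tested members 58 were called higher and 7 lower (median 0.19, 0.17 without the H2O2 library of F5), 45 and 6 without the H2O2 library of F5 and 18 and 2 without that of F8. The vacuolar ATPase, the pump that acidifies lysosomes, had the greatest share, 13 of 20 higher and 0 lower at a median of 0.43. With the H2O2 library of F8 left out 0 of the 20 passed, with that of F5 10 and with that of M9 8. Atp6v1a, its catalytic subunit, read 1729.7, 1484 and 1544 in vehicle and 2517, 2479.5 and 2043 with H2O2 (0.56 ± 0.11, adjusted p = 0.0282), and Atp6v1e1 and Atp6v0c were higher by close amounts (0.52 ± 0.11 and 0.44 ± 0.09).

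Lysosomal hydrolases had 16 of 46 higher and 1 lower (median 0.40, 10 higher without the H2O2 library of F8), and lysosomal membrane proteins 9 of 25 higher (0.33, 2 without it). Tpp1, a peptidase lost in a neuronal storage disease, read 1737, 1774 and 1541 in vehicle and 3209, 3328 and 2726 with H2O2 (0.87 ± 0.11, adjusted p = 0.017). The cathepsin genes Ctsf and Ctsd rose further (1.51 ± 0.20 and 1.32 ± 0.16), and in all 3 genes M9 was the lowest of both groups. Scpep1, a serine carboxypeptidase, went against the list, from 1274, 1317 and 1346 to 908, 1025 and 1016 (-0.42 ± 0.09, adjusted p = 0.0312). Cd63, a tetraspanin of late endosomes, and Ostm1, of the lysosomal chloride channel, were higher (0.66 ± 0.08 and 0.57 ± 0.09).

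Promoters of Ctsd (chr7:142387828-142387967, minus strand) and Ctsf (chr19:4855025-4855164, plus strand) are shown because both rose and hold the E-box letters CACGTG, which form the core of the motif bound by TFEB, a regulator of lysosomal genes, and are also bound by MYC and clock factors. The E-box is in capitals in the 140 bases before the start (RefSeq, GRCm38.p6).
Ctsd: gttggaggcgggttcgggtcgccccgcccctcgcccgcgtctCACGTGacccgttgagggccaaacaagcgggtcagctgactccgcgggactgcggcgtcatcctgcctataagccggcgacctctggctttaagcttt
Ctsf: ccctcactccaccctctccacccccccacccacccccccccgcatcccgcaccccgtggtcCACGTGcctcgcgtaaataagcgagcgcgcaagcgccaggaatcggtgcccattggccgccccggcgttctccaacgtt
CACGTG was in 27.3% of the 44 promoters of the hydrolase list, against 9.71% of all promoters of tested genes.

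Autophagy had 6 of 37 higher and 0 lower (median 0.30), with 2 higher without the H2O2 library of F8 and 10 with the block. Gabarap, which coats the growing autophagosome, read 1559, 1675 and 1413 in vehicle and 2949, 2478 and 2142 with H2O2 (0.69 ± 0.13, adjusted p = 0.0258), and Wipi1 and Atg9a, both needed early, were higher by 1.01 ± 0.19 and 0.62 ± 0.12. Rab GTPases, which address vesicles, had 5 of 49 higher, and COPI and COPII coats 2 of 24, against 5.57% of all genes. Without H2O2-F8 1 and 0 of them were higher. Genes of the translocon and N-glycosylation, the entry to the secretory route, had 4 of 43 lower and 0 higher, 2 lower without H2O2-F8 or H2O2-M9, with Alg8 at -1.18 ± 0.24. Primary cilium genes had 1 of 55 higher and 2 lower, the latter including Smo, the transducer of hedgehog signals (-0.39 ± 0.09). Neurosecretory vesicle genes had 6 of 19 higher and 0 lower (median 0.46), with 3 and 2 higher without H2O2-F5 and H2O2-F8. Scg2, a granin of dense core vesicles, was low in vehicle at 12.8, 7.70 and 7.01 and reached 102, 59.0 and 36.9 with H2O2 (2.64 ± 0.44, adjusted p = 0.022), in the order F5, F8, M9 in both groups.

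Matrix and surface genes were called mostly higher, through members of widely different level. Of 561 tested members 52 were called higher and 7 lower (median 0.26, 0.19 without the H2O2 library of F5), and 18 and 4 without the H2O2 library of F8. With the block 100 were higher and 14 lower, and by DESeq2 124 and 13. Podn, a small leucine-rich proteoglycan, read 35.1, 32.7 and 28.0 in vehicle and 162, 159.7 and 195 with H2O2 (2.39 ± 0.22, adjusted p = 0.0127). Sdc4, a syndecan that holds growth factors at the surface, went from 833, 958 and 844 to 1816, 1657 and 1770.1 (0.99 ± 0.09, adjusted p = 0.0127). In both genes the H2O2 libraries were as close together as the vehicle libraries, and Ecm1, a secreted matrix glycoprotein, spread more widely (116, 137 and 50.8 and 1127, 641 and 459, 2.88 ± 0.43). Collagens had 3 of 20 higher with the widest vehicle spread of any list (median SD 0.53), and 1 higher without any 1 of the 3 H2O2 libraries. Col18a1, a basement membrane collagen, read 1106, 368 and 180.4 and 1839, 2340.1 and 1818 (2.24 ± 0.55, adjusted p = 0.0412), so that the vehicle libraries differed among themselves by more than the H2O2 libraries. It was the 1 named gene not called by DESeq2 (adjusted p = 0.0559), and it did not pass by edgeR, without H2O2-F5 (0.0573), without H2O2-F8 or without H2O2-M9.

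Among adhesion and guidance receptors the lists differed in their share of calls. Cadherins and protocadherins had 5 of 80 higher, near the 5.57% of all genes, and 1 lower (median 0.28). Without H2O2-F8 2 were higher and 0 lower, and DESeq2 called 30 higher, the widest gap between the tests in any list. Cdh13, a cadherin anchored by lipid, read 1107, 1111 and 916 in vehicle and 2052, 1991 and 1958 with H2O2 (0.94 ± 0.10, adjusted p = 0.0138), and Fat3, a giant protocadherin, was lower (-1.32 ± 0.32). Ephrins, semaphorins, Slits and their receptors, which guide axons and cells, had 8 of 49 higher and 0 lower, with 1 higher without the H2O2 library of F8 and Robo3 rising from 20.2, 16.4 and 17.5 to 66.4, 45.8 and 60.1 (1.61 ± 0.28) and Efna3 by 1.00 ± 0.19. Itgav, an integrin chain, was higher at 2832, 2825 and 2719.5 and 4912, 4063 and 4067 (0.63 ± 0.10, adjusted p = 0.0207), and Itga7 by 1.16 ± 0.23. Ion channels had 10 of 86 higher and 3 lower, 2 and 1 without the H2O2 library of F8, 6 and 1 without H2O2-M9 and 14 and 5 with the block, among them the calcium channel gene Cacna1h (0.69 ± 0.12) upward and the potassium channel gene Kcnk5 (-1.46 ± 0.35) downward. None of 46 Gpr and Adgr receptors passed by limma, and 1 did by DESeq2 and 2 with the block.

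Signalling pathways that set NSC state had single calls spread over ligands, receptors and targets. Of the Notch pathway, which holds NSCs in an undivided state, 2 of 21 were higher, Notch3 (469, 514 and 589 in vehicle and 1144, 947 and 985 with H2O2, 0.97 ± 0.12, adjusted p = 0.0186) and Dner, a noncanonical ligand (0.79 ± 0.14), of which Dner did not pass without H2O2-F8. Among the BMP and TGF-beta genes the targets Id1, Id2 and Id3, which encode inhibitors of differentiation, were higher (1.98 ± 0.47, 1.22 ± 0.20 and 1.24 ± 0.31), and Ltbp4, which stores TGF-beta, was lower (-0.68 ± 0.15). Without H2O2-F8 Id1 and Id3 did not pass. Id2 read 444, 585 and 502 and 1613, 1058 and 965, with F5 highest. In the FGF and EGF list, whose ligands were in the medium, the feedback inhibitors Spred3, Spred1 and Spry2 were higher (1.21 ± 0.18, 0.72 ± 0.16 and 0.54 ± 0.14), and Fgf13, an intracellular relative of the growth factors, went from 49.0, 69.3 and 62.2 to 9.05, 14.2 and 7.38 (-2.48 ± 0.34, adjusted p = 0.0186). With the block 9 of the 23 members of that list were higher, against 4 without it, and 2 and 1 without H2O2-F5 and H2O2-F8. Wnt genes had 3 of 38 higher, near the 5.57% of all genes, with 6 with the block, 0 without H2O2-F8 and 7 without H2O2-M9, and the smallest p was that of Apc2 (1.04 ± 0.21). Igfbp3, which binds insulin-like growth factors, was higher at 2826, 2608 and 2533 and 7049, 4799 and 3757 (0.92 ± 0.20).

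Stress and fate genes had 38 of 188 higher and 8 lower, 14 and 7 without the H2O2 library of F8. Arrest and metabolic targets of p53 had 16 of 33 higher and 0 lower (median 0.66), and the pro-apoptotic targets with the BCL2 family 6 of 27 higher and 1 lower (0.29). Without the H2O2 library of F8 5 and 2 were higher. Abhd4, a lipase of N-acyl phospholipids, read 4895, 4888 and 3918 in vehicle and 10571, 8390.3 and 8394 with H2O2 (1.00 ± 0.13, adjusted p = 0.0186). Perp, a membrane protein of p53-driven death, went from 21.3, 15.4 and 24.5 to 152, 108 and 88.5 (2.44 ± 0.31, adjusted p = 0.0186), while the survival gene Bcl2l1 was higher as well (1.26 ± 0.22) and the death effector gene Bok lower (-0.65 ± 0.18). FoxO genes had 5 of 16 higher, 9 with the block and 2 without H2O2-F8, and Pik3ip1, an inhibitor of PI3 kinase and a FoxO target, went from 209, 199 and 236 to 386, 513 and 514 (1.12 ± 0.16, adjusted p = 0.0194). Clock genes had 3 of 20 higher, 1 without H2O2-F8, Arntl, the activator that pairs with CLOCK (268, 262 and 287 and 709, 500.4 and 719.6, 1.22 ± 0.16), its relative Arntl2 (1.10 ± 0.29) and the repressor gene Per1 (0.92 ± 0.19).

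The identity class, which also held long noncoding RNAs and imprinted genes, had no lower call by limma without the block, but had some with it. Of 94 tested members 8 were higher and 0 lower (median 0.06), with 13 and 6 with the block, 12 and 5 by DESeq2 and 2 and 0 without H2O2-F8. Without H2O2-F5 3 were lower and without H2O2-M9 2. Neural stem cell transcription factors other than Sox had 1 of 31 higher, and filaments with progenitor surface genes 1 of 17, against 5.57% of all genes. Imprinted protein-coding genes had 2 of 18 higher. None of 12 Sox factors passed by limma, against 1 lower by DESeq2 and 2 lower with the block, and Sox11 had the smallest p (-0.95 ± 0.28, adjusted p = 0.062). Prox1, a factor of granule neurons and their progenitors, was higher at 365, 286 and 256 in vehicle and 458, 666 and 526 with H2O2 (0.86 ± 0.19, adjusted p = 0.0321). Of 16 long noncoding RNAs 4 were higher, 2 without H2O2-F8, among them the nuclear body RNAs Neat1 (166, 209 and 143 and 461, 287 and 414, 1.15 ± 0.22) and Malat1 (0.95 ± 0.20) and the host of miR-22, Mir22hg (1.88 ± 0.36).

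Families defined by the letters of the gene symbol were summarized as well. They are not independent of the lists, since symbols are often given by function and genes such as Nup155 are in both. Of 86 families with 15 or more tested members, those with the lowest medians were Nup (-0.86, 13 of 20 lower), Cep (-0.58), Rad (-0.55), Mettl (-0.33) and Ddx (-0.32). The highest were Il (0.58, 3 of 24 higher), Pcdhb (0.56, 2 of 20), Cyp (0.39, 1 of 17), Col (0.38, 3 of 21) and genes whose symbol has the single letter P (0.36). The Pcdhb genes, clustered protocadherins that give neurons surface identities, had library medians of 0.43, 0.68 and 0.74 for F5, F8 and M9, so that F5 did not have the largest.

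The spread of the 3 replicates depended on the treatment and on the list. The median SD over genes was 0.17 on the log2 scale in vehicle and 0.23 with H2O2, and 84 of the 97 lists were wider with H2O2. The kinetochore list went from 0.19 to 0.97 and the MCM and origin list from 0.11 to 0.96, while arrest and metabolic p53 targets were at 0.24 and 0.19, collagens at 0.53 and 0.50 and the vacuolar ATPase at 0.11 and 0.13. The library medians had the same sign in all 3 cultures in 43 lists below 0 and in 41 above 0, and in 71 lists F5 was the farthest from 0.

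**Figure D5:**
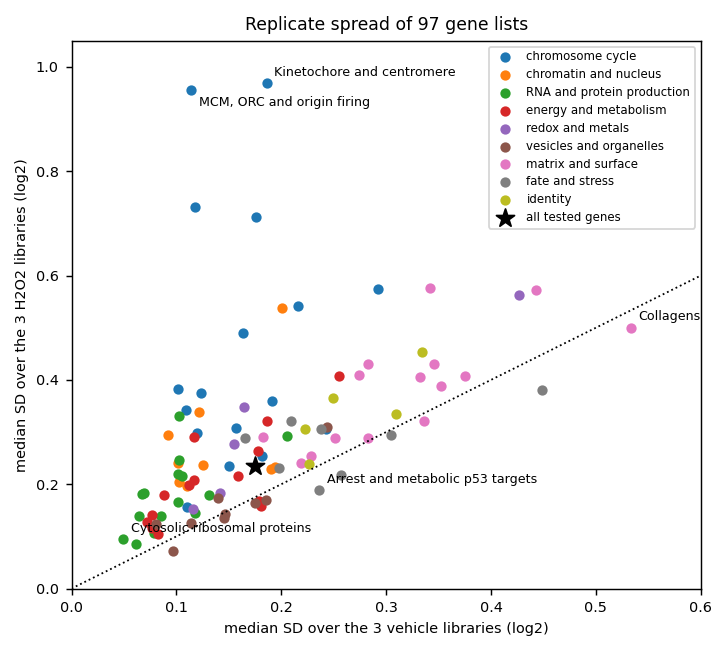
Median over members of the SD of log2(value + 1) across the 3 vehicle libraries (horizontal) and the 3 H2O2 libraries (vertical) for 97 gene lists, coloured by class, with a star for all tested genes (0.17 and 0.23) and a dotted line of equal spread. The kinetochore and MCM lists lie far above the line at 0.97 and 0.96, and 84 of the 97 lists lie above it.

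The unfiltered table of the same libraries added little outside the CLEAR set. It held 35890 genes above 0, of which 22176 were not in the CLEAR table and had a median level of 0.691 normalized counts. Of these 58 were higher and 95 lower with H2O2. Ptprn and Nemp1 are given as examples and were chosen after their values were seen. Ptprn, a protein of dense core vesicles, read 27.6, 36.2 and 4.38 in vehicle and 355, 232 and 248 with H2O2 (3.94 ± 0.55, adjusted p = 0.00422), with M9 far below the other vehicle libraries. Nemp1, an inner nuclear membrane protein, read 425, 427 and 481 in vehicle and 73.8, 158 and 202 with H2O2 (-1.73 ± 0.28, adjusted p = 0.00796).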

How the data were processed

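The 6 libraries of 1 ng RNA (SMART-Seq HT and Nextera XT, paired ends, polyA RNA) were analysed, 3 with H2O2 and 3 with vehicle. Per the study's methods, the authors trimmed reads, removed ribosomal, mitochondrial and PhiX reads, aligned with HISAT2 (2.0.6 in the submitters' processing notes, which also list CASAVA 1.8.2 and a human build) to mouse GRCm38 and counted reads per gene without strand with featureCounts, so overlapping antisense genes are not separated. The deposited values are a signal, gene counts that the authors divided by a size factor per library. Whole reads were recovered (100% of values within 1e-08 of a whole number). Of 13936 genes in the CLEAR table, 244 at 0 in all libraries were left out and 13692 tested. Symbols that the tables hold as dates (19) are not named. A few other called genes are not reported here.

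Groups came from the column headers, which were not matched to single sample titles. H2O2 was compared with vehicle on the log2(normalized count + 1) scale by limma 3.58.1 in R 4.3.3 (moderated test whose prior variance follows the mean, both sides, Benjamini-Hochberg over every tested gene, threshold 0.05). The pseudocount makes the change of weakly expressed genes appear smaller. DESeq2 1.42.0 and edgeR 4.0.16 were run on the recovered reads. The limma fits with and without the block, DESeq2 without the block and edgeR were checked on simulated data. The simulation had the same dispersion for all genes and both groups and no culture effect. The other settings, left-out libraries included, were not simulated. Other scalings, pseudocounts (0.5, 8), a mean of at least 10, the unfiltered table, the culture as a block and left-out libraries and cultures were tried. Deviations of same-culture libraries from their group means correlated at 0.122, 0.101 and 0.341 over genes for F5, F8 and M9. Between F5 and F8 the values were 0.096 and 0.037, and between M9 and the other cultures -0.204 to -0.123. The values set M9 apart, and show little pairing of F5 and F8 each with its own culture.

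The comparison, the lists and their members were chosen with earlier results of these data known. Named genes are the called members of a list with the smallest p, at most 3 in each direction, those called against the direction of their list, or, where none is called, the member with the smallest p. Library values are given mainly for the first of them, and lists of like role share this quota. Symbol families share the letters before the first digit and have at least 15 tested members, and the 5 highest and 5 lowest medians are given. The p-values rest on the spread among 3 cultures. Reads are not independent molecules, and 3 libraries per group limit the precision.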

Additional observations from a re-analysis of the deposited data

How the results depend on the processing

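Counts of genes called higher and lower with H2O2, 762 and 973 by limma, were 788 and 992 with edgeR, 770 and 1015 with TMM scaling, 755 and 958 with a pseudocount of 0.5, 736 and 957 with 8, 805 and 1015 with a mean of at least 10 and 770 and 1077 in the unfiltered table. They were larger with DESeq2 (1324 and 1463). With the culture as a replicate block they were 1155 and 1351 by limma and 1181 and 1337 by DESeq2. Leaving out 1 library gave 0 to 700 higher and 0 to 986 lower by limma, the 0 in each case without a vehicle library, and 630 to 1321 and 776 to 1474 by DESeq2, an alternative chosen after seeing the data. Leaving out both libraries of F5 gave 267 and 563, and leaving out both of F8 or of M9 gave 0 and 0 by limma, with 1393 and 1613 higher and 1616 and 1740 lower at an unadjusted p under 0.05. Fits that left out 1 H2O2 library instead of 1 vehicle library called 246 to 700 higher and 392 to 986 lower by limma. The cause of these losses was not tested. The 166 called genes named in the report all kept their direction in the 20 fits of the CLEAR table. As their groups do not overlap and they were picked by p in these data, this was largely fixed in advance. Of them 162 to 166 were called by limma or edgeR under the other scalings, pseudocounts and filter. DESeq2 called 165, limma with the block 164 and DESeq2 with the block 161. When the H2O2 library of F5 was left out 152 were called, of F8 107 and of M9 152. At 10032628 to 11946931 reads per library, genes of a few reads, such as Ascl2 or Isg15, cannot be measured closely.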
